A study of Mus musculus with 2 samples.

Results

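The genes described here encode 9 leukocyte adhesion molecules out of 32285 genes counted in the livers of young mice. They are the vascular selectins Selp and Sele, the selectin ligand Selplg, the integrin ligands Icam1, Icam2, Vcam1 and Madcam1, and the integrin subunits Itga4 and Itgb7. They were chosen by name as selectins, selectin ligands, integrin ligands and integrin subunits. No measured level enters that rule, but earlier results of these data were known when it was made. Single cells were sorted from the liver at postnatal day 15 and captured in droplets, with a unique molecular identifier (UMI) on each transcript molecule. There was 1 library of control endothelial cell mice and 1 of c-Maf KO endothelial cell mice, and in both a male and a female were pooled and both endothelial and hematopoietic cells were kept. Which promoter drives the deletion is not stated in these sources. With 1 library per group nothing is replicated, so the comparisons are of 1 library with another, no p-value is given, and 95% intervals cover counting error only.

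Leukocytes leave the blood in steps. Selectins on the endothelium, P-selectin (Selp) and E-selectin (Sele), catch carbohydrate-bearing ligands such as PSGL-1 (Selplg) and let leukocytes roll. Integrins on the leukocyte then bind immunoglobulin-like ligands on the vessel wall and arrest the cell. ICAM-1 and ICAM-2 bind the beta2 integrins, VCAM-1 binds the integrin of the alpha4 (Itga4) and beta1 subunits, and MAdCAM-1 binds the integrin of alpha4 and beta7 (Itgb7). In the adult, MAdCAM-1 is best known from the venules of gut lymphoid tissue, and liver sinusoids differ from other vessels in relying little on selectins.

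The tables held 9038 control barcodes with 54143192 UMIs and 9058 c-Maf KO barcodes with 60281713 UMIs. Of these, 7669 and 8166 carry a cluster name from the authors, with 2948 and 2991 cells in 7 endothelial clusters, and 21 named barcodes occurred in both libraries. The median depth of endothelial cells was 4985.5 UMIs in the control and 7320 UMIs in c-Maf KO. Maf itself went from 2070 to 162 CPM (UMIs of the gene per 1000000 UMIs of the cells summed) in endothelial cells. All 10 endothelial markers examined were detected in both libraries, with summed levels of 7524 and 5769 CPM. The makeup of the pool also differed. Endothelial cells with an Xist UMI and no Y-linked UMI (female-type) numbered 772 in the control and 1692 in the c-Maf KO library, and cells of the reverse kind (male-type) numbered 846 and 328.

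In endothelial cells as a whole, Vcam1 and Madcam1 were higher in the c-Maf KO library and Selp and Itga4 were lower, while Sele, Selplg, Icam1, Icam2 and Itgb7 moved by less than the size required. The call rests on size only: the levels had to differ by a factor of 1.5 or more, and both sums together had to hold 50 UMIs. All 9 genes reached 50 UMIs, and 2 were called higher and 2 lower. Madcam1 reached that minimum only through its c-Maf KO sum (108 UMIs, against 3 in the control). Of 11927 genes tested in the same cells, 14.5% were called higher and 16.0% lower. The median log2 ratio (c-Maf KO over control) of the 9 genes was 0.04, against -0.08 over all genes tested. As a list, then, the adhesion genes were called at about the rate of all genes.

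**Figure D1:**
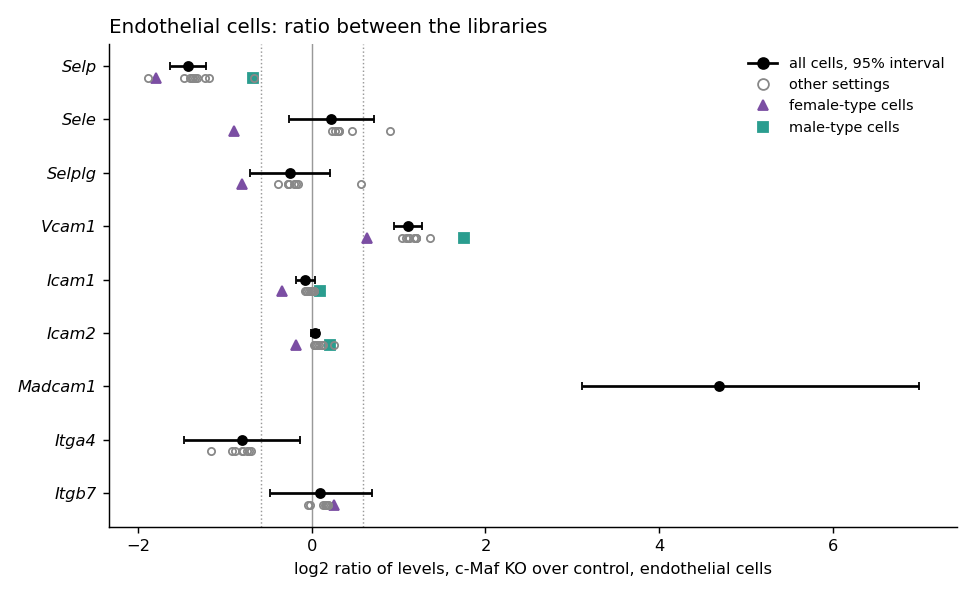
Log2 ratio of the level in c-Maf KO over control endothelial cells for each gene (black points, 95% counting intervals), with the values under other settings (open circles), in female-type cells (triangles) and in male-type cells (squares) where at least 50 UMIs were counted. Dotted lines mark a ratio of 1.5 either way, and Madcam1 is drawn with its interval alone because it rests on 3 control UMIs. Selp lies below and Vcam1 above the dotted lines in all cells and in both types, Icam1 and Icam2 lie between the lines, and Sele lies on opposite sides of the lines under different settings.

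Selp, which encodes P-selectin, was lower in the c-Maf KO library in the sinusoidal clusters and higher in the cluster named PV. The gene sits at 164115264 to 164150026 of chromosome 1, plus strand (GRCm38, GENCODE M21). Over all endothelial cells its level was 34.2 CPM (31.5 to 37.2) in the control, from 556 UMIs, and 12.8 CPM (11.3 to 14.3) in the c-Maf KO library, from 289 UMIs. The intervals do not overlap, and the log2 ratio was -1.42 (-1.63 to -1.21). Female-type cells gave -1.79 and male-type cells -0.68, called lower in both. It was -0.67 (21.9 and 13.9 CPM) in the 558 control and 792 c-Maf KO cells without a UMI of any leukocyte, platelet or Kupffer marker, again called lower. Platelets also store P-selectin, so the genes of platelets were examined in the same cells. The summed level of 10 megakaryocyte and platelet markers was 122 and 116 CPM, and cells without any such UMI had 34.4 and 11.8 CPM of Selp. Cells with 1 or more such UMIs had 33.7 and 17.5 CPM. The part of platelet RNA in the Selp levels was not tested.

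Most control endothelial cells fell in S and S2, and Selp was less abundant in S than in S2. It stood at 16.7 CPM in control S and 3.18 CPM in c-Maf KO S, and at 39.8 CPM in control S2 and 11.3 CPM in c-Maf KO S2. In the clusters KOS_1, KOS_2 and KOS_3, which held the other c-Maf KO sinusoidal cells, it stood at 9.67, 4.94 and 13.6 CPM. Each of these 5 c-Maf KO levels was below that of control S, although the intervals of S2 and KOS_3 overlap it. In the cluster C-EC the levels were 23.5 and 7.70 CPM, from 15 and 27 UMIs, which is under the minimum for a call. The gene was therefore low in the c-Maf KO library in the sinusoidal clusters the libraries share and in those found mainly in the c-Maf KO library.

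PV was taken as large vessel endothelium from its markers, which summed to 2621 CPM in control and 3620 CPM in c-Maf KO cells. There Selp was at 43.8 CPM (26.3 to 68.3) in 56 control cells and at 85.0 CPM (68.8 to 104) in 135 c-Maf KO cells. The control sum holds 19 UMIs from 6 cells, 9 of them in 1 cell, and the c-Maf KO sum 95 UMIs from 39 cells. The log2 ratio was 0.93 (0.24 to 1.75), and without the cell richest in Selp in each library it was 1.58. Of 4 adhesion genes tested in PV, Selp was called higher and Vcam1 lower, where 10.8% and 7.94% of all genes were called. PV cells were 4.94% of the UMIs of c-Maf KO endothelial cells and gave 32.9% of their Selp UMIs, whereas in the control they were 2.67% of the UMIs and gave 3.42%. In the c-Maf KO library the large vessel cluster thus gave a larger share of the Selp UMIs than of all UMIs. Markers of other cells differed in PV too: the 10 stellate and mesenchymal markers summed to 1149 and 389 CPM and the 10 hepatocyte markers to 781 and 113 CPM, and their part in the PV levels was not tested. The platelet markers stood at 89.8 and 82.4 CPM there. Cells with 5 or more UMIs of the peritoneal macrophage genes described below for cluster K numbered 7 of 56 and 8 of 135 in PV. Their part in its Selp was not tested.

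Selp was also counted in some hematopoietic clusters. In the B lineage cluster B1 it was called lower, with 20 UMIs in 19 of 295 control cells and 35 UMIs in 33 of 1114 c-Maf KO cells, a ratio of 0.540 (0.303 to 0.987). The pooled T clusters had 1.27 and 0.369 CPM. The endothelial markers summed to 268 and 251 CPM in B1, and their part in its Selp was not tested. In the T clusters, a Selp UMI was held by 0.615% of control cells and by 0.242% in the c-Maf KO library at median depths of 5789 and 5519 UMIs, against 9.60% and 5.75% of endothelial cells. With each cell thinned to 1128 UMIs and shallower cells left out (363 control and 231 c-Maf KO), Selp was seen in 2.98% and 1.45% of endothelial cells.

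Sele, which encodes E-selectin and is usually silent until endothelium is stimulated, was rare in both libraries and was most abundant, among endothelial clusters, in PV. It lies beside Selp on chromosome 1, from 164048234 to 164057677 on the plus strand. Its endothelial level was 3.63 CPM in control and 4.24 CPM in c-Maf KO cells, from 59 UMIs in 36 cells and 96 UMIs in 63 cells. The log2 ratio of 0.22 (-0.26 to 0.72) includes equality. In PV it stood at 27.6 CPM (14.3 to 48.3) from 12 UMIs in 3 cells and at 15.2 CPM (8.86 to 24.4) from 17 UMIs in 10 cells, and these intervals overlap. Among the endothelial clusters, control S2 followed with 3.85 CPM, and c-Maf KO KOS_1 with 4.98 CPM. Outside them, control cluster H, of mixed markers, had 7 UMIs in 3 of 66 cells, or 27.4 CPM, about the level of PV. The ratio was not stable: it was 0.90 when each cell was weighted equally, which is called higher, and -0.89 in female-type cells, which is called lower. Hematopoietic cells, which should lack the gene, held a Sele UMI in 0.0870% of cases in the control and 0.0590% in c-Maf KO, against 1.22% and 2.11% of endothelial cells.

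Madcam1, which encodes the ligand of the alpha4 beta7 integrin, was close to absent from control endothelial cells and was counted in a small set of c-Maf KO cells. The gene sits at 79664559 to 79668537 of chromosome 10, plus strand. Control endothelial cells held 3 UMIs in 3 of 2948 cells (0.185 CPM, 0.0381 to 0.540), and c-Maf KO endothelial cells held 108 UMIs in 68 of 2991 cells (4.77 CPM, 3.92 to 5.76). The intervals do not overlap, and the ratio of the levels was 25.8 with a counting interval of 8.61 to 127. Hematopoietic cells held 0 UMIs in 4599 control cells, which allows a share of up to 0.0652% of cells with a UMI, and 2 UMIs in 5085 c-Maf KO cells. Thinned to 1128 UMIs, Madcam1 was seen in 0 of 2585 control endothelial cells, which allows up to 0.116%, and in 14 of 2760 c-Maf KO endothelial cells (0.507%). Female-type endothelial cells held 2 and 90 UMIs and male-type ones 0 and 8. The gene was thus detectable in few c-Maf KO cells, almost all of them endothelial.

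Within the c-Maf KO library, endothelial Madcam1 UMIs lay in the clusters that the control nearly lacked and in C-EC. KOS_1 held 62 UMIs in 40 of 1356 cells (4.41 CPM), C-EC 25 UMIs in 17 of 408 cells (7.13 CPM), and KOS_2 17 UMIs in 8 of 518 cells (14.0 CPM). In KOS_2 a single cell held 9 of the 17 UMIs. Cluster D, of mixed markers and in neither group, held 4 UMIs in 3 of 72 c-Maf KO cells (7.92 CPM, 2.16 to 20.3) and 0 in 56 control cells, which allows a share of up to 5.36%. KOS_3 held 4 UMIs, and S, S2 and PV held 0 in 223, 113 and 135 cells, which allows shares of up to 1.35%, 2.65% and 2.22%. Most of these sums are small, and the intervals of KOS_1, KOS_3 and C-EC overlap. Per cell, 47 of the 68 cells had 1 UMI, 14 had 2 and 7 had 3 or more. Cells with Madcam1 carried a Vcam1 UMI in 45.6% of cases (33.5 to 58.1), against 21.9% of the other c-Maf KO endothelial cells, but they were also deeper (median 11515 against 7226 UMIs). A Selp UMI was present in 1 of the 68 (1.47%, 0.0372 to 7.92), against 5.85% of the other c-Maf KO endothelial cells, a share inside that interval.

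The windows of 250 bases before the RefSeq start of a gene that rose, 1 that fell and 1 that moved little are given so that the letters searched for motifs can be seen. They were picked by those directions, and the search compares no groups of genes. They run 5′ to 3′ in the direction of the gene on GRCm38.p6, at chr10:79664309-79664558 for Madcam1, chr1:164115014-164115263 for Selp and chr9:21015690-21015939 for Icam1, all on the plus strand. Capitals mark matches on either strand to a 10-letter NF-kB motif, which reads GGG, then 2 bases of any kind, then TTTCC.
Madcam1: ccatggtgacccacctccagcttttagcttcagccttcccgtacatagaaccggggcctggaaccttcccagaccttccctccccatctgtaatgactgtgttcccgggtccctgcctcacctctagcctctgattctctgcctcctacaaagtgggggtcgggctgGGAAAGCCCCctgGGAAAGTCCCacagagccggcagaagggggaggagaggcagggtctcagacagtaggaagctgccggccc
Selp: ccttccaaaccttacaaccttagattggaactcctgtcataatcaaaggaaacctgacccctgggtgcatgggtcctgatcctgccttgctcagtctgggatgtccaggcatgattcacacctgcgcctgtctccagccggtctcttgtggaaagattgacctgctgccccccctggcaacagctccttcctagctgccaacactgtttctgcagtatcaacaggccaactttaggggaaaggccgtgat
Icam1: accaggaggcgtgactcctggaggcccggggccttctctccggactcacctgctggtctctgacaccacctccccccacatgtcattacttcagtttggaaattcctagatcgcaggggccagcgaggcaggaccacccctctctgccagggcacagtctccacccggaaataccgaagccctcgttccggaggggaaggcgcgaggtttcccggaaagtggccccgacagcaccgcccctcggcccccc
NF-kB is the transcription factor family through which inflammatory cytokines induce many adhesion genes. Madcam1 was the only one of 6 adhesion genes with a window (Selp, Sele, Icam1, Madcam1, Itga4 and Itgb7) to match this fixed 10-letter pattern. Its matches lie on the minus strand from 83 to 74 and from 70 to 61 bases before the start. Of 32851 windows of this length, 1.41% held the motif and 8 (0.0244%) held it 2 times or more. The 9-letter form GGGNNTTCC, found in 4.98% of windows, matched in Madcam1 alone as well and overlaps the first match. The STAT motif TTCCNGGAA, in 0.913% of windows, matched in Icam1 alone, from 42 to 34 bases before the start. The core of the Maf recognition element, TGCTGA, (16.1% of windows) and the GATA motif GATAAG (6.55%) matched in 0 of the 6. A match is a run of letters and does not show that a factor binds there. The lack of a match does not show that a gene has no site, since other forms of each motif and bases outside the windows were not searched.

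Vcam1, which encodes the ligand of alpha4 beta1 integrin, was higher in c-Maf KO endothelial cells. It sits at 116109949 to 116129688 of chromosome 3, minus strand. Its endothelial level was 27.1 CPM (24.6 to 29.8) from 440 UMIs in the control and 58.4 CPM (55.2 to 61.6) from 1320 UMIs in the c-Maf KO library. The intervals do not overlap, and the log2 ratio was 1.11 (0.95 to 1.27). It was called higher in both types of cell, with 0.63 for the female-type and 1.75 for the male-type. At equal depth (1128 UMIs per cell) the share of endothelial cells with Vcam1 was 2.32% in the control and 5.33% in c-Maf KO. For T cells it was 0.353% in the control, and 0 of 819 cells in c-Maf KO, which allows up to 0.366%. A larger share of c-Maf KO cells thus held Vcam1 at equal depth. Kupffer cells express Vcam1 too, and their 10 markers summed to 315 CPM in control and 32.2 CPM in c-Maf KO endothelial cells. In the cells without a UMI of any leukocyte, platelet or Kupffer marker the log2 ratio was 1.36.

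The higher level of Vcam1 lay in the clusters that the control nearly lacked. Levels were 66.4, 47.7 and 76.8 CPM in c-Maf KO KOS_1, KOS_2 and KOS_3, against 26.4 CPM in control S and S2 together. KOS_1 held 934 of the 1320 UMIs. C-EC rose from 32.9 CPM (20.4 to 50.3) to 57.6 CPM (49.9 to 66.1), intervals that overlap slightly. The c-Maf KO cells that fell in S and S2 together had 17.2 CPM from 33 UMIs. By cluster, Vcam1 was at 28.6 CPM in control S2 and 14.4 CPM in c-Maf KO S2, but at 18.7 and 20.1 CPM in S. The mix also differed: S and S2 gave 21.0% and 72.0% of control endothelial UMIs, and 4.17% and 4.30% of those in the c-Maf KO library. In PV the levels were 46.1 CPM (28.1 to 71.1) and 27.7 CPM (18.9 to 39.4), from 20 and 31 UMIs, and these intervals overlap. Without the cell richest in Vcam1 in each library the PV sums fell under 50 UMIs and gave no call. In S and S2 together, 6 adhesion genes were tested, 0 were called higher and 4 lower (Selp, Sele, Vcam1 and Icam1), where 5.33% of all genes were called higher and 7.28% lower. These pooled calls did not all hold within the clusters. In S alone only Selp was called lower, and in S2 alone Selp and Vcam1 were called lower and Selplg higher. Icam1 was called in neither alone. The Sele call in S and S2 together rests on 47 and 3 UMIs, and its ratio of 0.504 has an interval from 0.100 to 1.56. In C-EC, 3 were tested, Vcam1 was called higher and Icam1 lower, beside 9.58% and 18.4% of all genes.

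**Figure D2:**
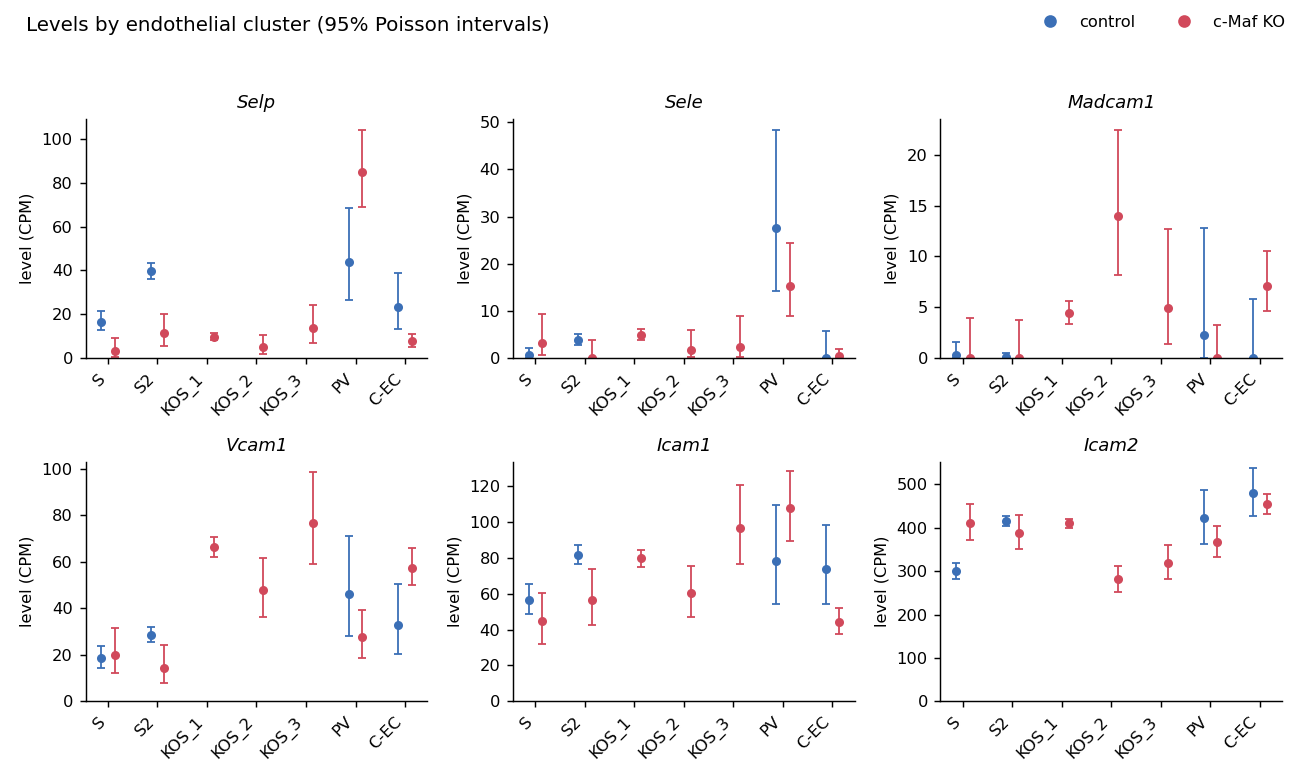
Level (CPM, linear axis, 95% Poisson intervals) of the 6 vascular genes in each endothelial cluster with at least 50 cells in a library, for the control (blue) and the c-Maf KO library (red). KOS_1, KOS_2 and KOS_3 held at most 21 control cells each and show the c-Maf KO library alone. Selp points of the c-Maf KO library sit below the control in S, S2 and C-EC and above it in PV, Vcam1 is highest in the KOS clusters and C-EC, Madcam1 appears in those clusters, and Icam2 stays between 281 and 479.9 CPM.

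Icam1 and Icam2, the ligands of beta2 integrins, differed little between the libraries. Icam1, the inducible one, sits at 21015985 to 21028817 of chromosome 9, plus strand. Its endothelial level was 76.4 CPM (72.2 to 80.8) in control and 72.6 CPM (69.1 to 76.2) in c-Maf KO cells. These intervals overlap, and the log2 ratio was -0.07 (-0.18 to 0.03). Within clusters it ranged in the c-Maf KO library from 44.2 CPM in C-EC to 107 CPM in PV. In S and S2 together it was 76.0 in control and 50.7 CPM in c-Maf KO cells, while c-Maf KO KOS_1 and KOS_3 had 79.6 and 96.6 CPM. The intervals of KOS_1 (75.0 to 84.4) and KOS_3 (76.4 to 121) overlap that of all control endothelial cells, and Icam1 was called in neither S nor S2 alone. The flat total thus sums clusters of unlike level, of which KOS_1 and KOS_3 are not set apart from the control.

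Icam2, which resting endothelium makes constantly, sits at 106377656 to 106388075 of chromosome 11, minus strand. Its level was 393 CPM (384 to 403) in control and 404 CPM (395 to 412) in c-Maf KO endothelial cells, a log2 ratio of 0.04 (-0.01 to 0.08). An Icam2 UMI was present in 64.6% and 75.3% of the cells, and in 32.0% and 33.4% of cells thinned to equal depth. Neutrophils, by comparison, held one in 8.02% of cells in both libraries, at median depths of 5576 and 7653.5 UMIs. Across clusters the lowest level in the c-Maf KO library was that of KOS_2, at 281 CPM, and C-EC was highest in both libraries with 479.9 and 454 CPM. In control S it stood at 300.1 CPM and in c-Maf KO S at 411 CPM, intervals that do not overlap, though the ratio of 1.37 is under the size for a call. Endothelial cells gave 79.1% of all annotated Icam2 UMIs in the control and 83.5% in the c-Maf KO library.

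Selplg, Itga4 and Itgb7, the genes on the leukocyte side, were counted almost wholly in hematopoietic clusters. Endothelial cells gave 1.03% and 1.25% of Selplg UMIs, 0.925% and 0.719% of Itga4 UMIs, and 1.25% and 2.72% of Itgb7 UMIs in the control and c-Maf KO libraries. Their endothelial levels were 4.74 and 3.98 CPM for Selplg, 2.77 and 1.59 CPM for Itga4, and 2.65 and 2.83 CPM for Itgb7. Selplg was called lower in female-type cells (log2 ratio -0.80), and its male-type sums were under 50 UMIs. The call of Itga4 as lower (log2 ratio -0.80, -1.47 to -0.14) rests on 45 and 36 UMIs. In the cells without a UMI of the leukocyte, platelet or Kupffer markers (558 control and 792 c-Maf KO) the Itga4 sums were 0 and 5. Over all endothelial cells the 10 leukocyte markers summed to 284 and 263 CPM, and the part of stray leukocyte RNA in these low levels was not tested.

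Selplg, the ligand on which leukocytes roll, sits at 113818536 to 113832644 of chromosome 5, minus strand. The cluster named CMP had the highest level in both libraries, at 694 CPM (654 to 737) and 670 CPM (622 to 720). Next among clusters of at least 20 cells came, in the control, T-Gzm and T-Foxp3 at 459 and 448 CPM, whose intervals overlap, and T-Cd6 at 378 CPM. B2 and B3 were lowest, at 61.6 and 60.3 CPM in the control and 64.7 and 77.6 CPM in the c-Maf KO library. Levels differed little between the libraries. Of 13 hematopoietic clusters compared, Selplg was called higher in 1, the Kupffer cluster K, and its log2 ratio ranged from -0.18 to 0.72.

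Itga4, the alpha4 subunit shared by the receptors of Vcam1 and Madcam1, sits at 79255426 to 79333123 of chromosome 2, plus strand. It was highest in Leukocytes_1, at 335 and 325 CPM, and was present in every hematopoietic cluster, with the lowest control level of 98.3 CPM in K. It was called in 0 of 13 clusters compared. In the 3 T clusters it stood at 138, 150.0 and 155 CPM in control T-Cd6, T-Foxp3 and T-Gzm and at 159, 189 and 231 CPM in c-Maf KO cells. The intervals overlap in T-Cd6 and do not in T-Foxp3 and T-Gzm. The log2 ratio in T-Gzm, 0.58 (0.37 to 0.79), lies just under the size for a call and passed it in 5 of 6 alternatives.

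Itgb7, the beta7 subunit, completes the receptor of Madcam1 and sits at 102215995 to 102231944 of chromosome 15, minus strand. Its levels were more uneven than those of its partner Itga4. T-Foxp3 had 293 CPM in control and 262 CPM in c-Maf KO cells, T-Cd6 252 and 203 CPM, and B3 112 CPM in both, while B1 held 5 UMIs in 1114 c-Maf KO cells and 0 in 295 control cells, which allows a share of up to 1.02%. The small cluster named Mast_cells held 58 UMIs in 17 of 18 control cells and 43 UMIs in 18 of 20 c-Maf KO cells, the latter at 413 CPM. Of 11 hematopoietic clusters compared, Itgb7 was called lower in K alone. In Leukocytes_1, Leukocytes_2 and CMP, Itgb7 stood at 173, 185 and 171 CPM in the control and at 171, 158 and 152 CPM in the c-Maf KO library. Both subunits of the Madcam1 receptor were thus counted in the T clusters, B3, Leukocytes_1, Leukocytes_2 and CMP of both libraries.

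**Figure D3:**
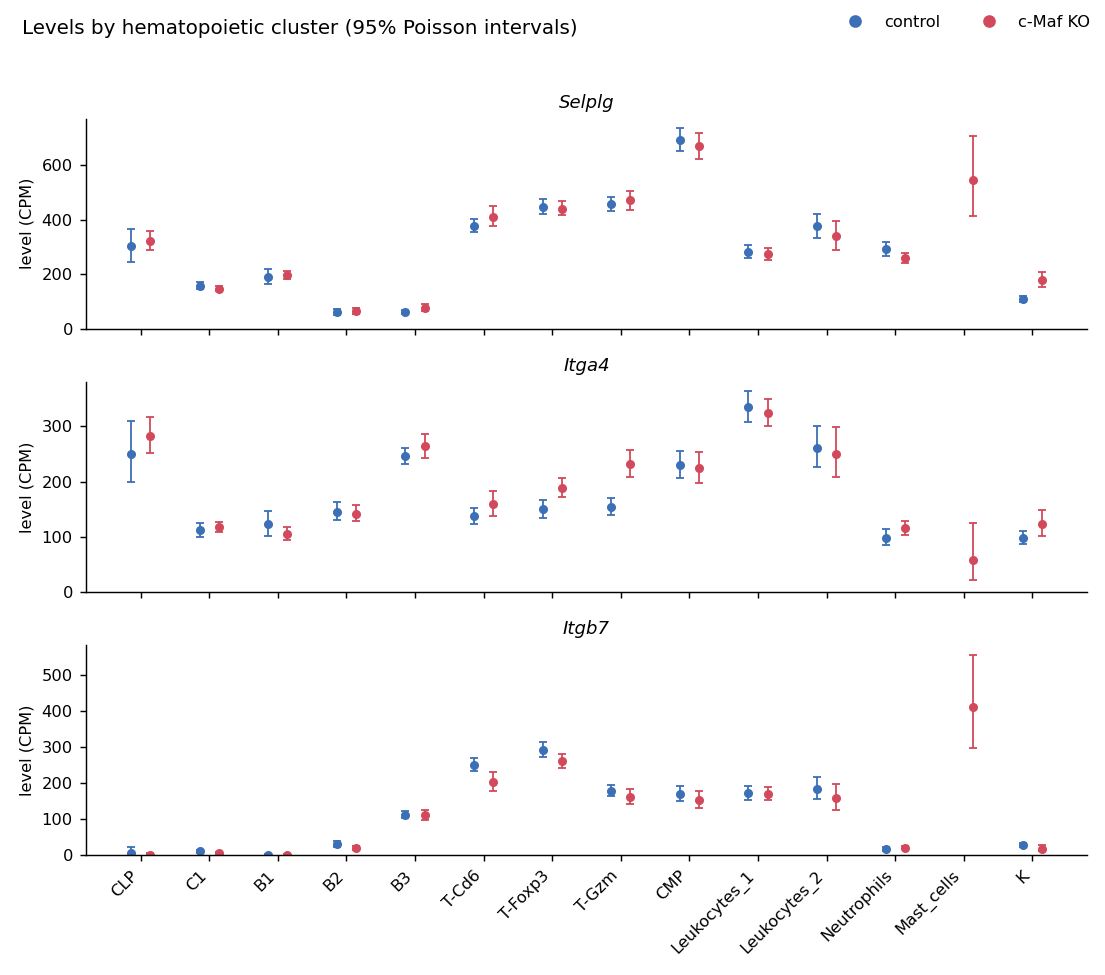
Level (CPM, linear axis, 95% Poisson intervals) of Selplg, Itga4 and Itgb7 in each hematopoietic cluster with at least 20 cells in a library, for the control (blue) and the c-Maf KO library (red). The libraries lie close together in most clusters, Selplg peaks in CMP, Itga4 in Leukocytes_1, and Itgb7 is near 0 in B1 and C1 and high in T-Foxp3.

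Cluster K, which the Kupffer markers (26053 and 20963 CPM summed) bear out as resident liver macrophages, held the highest Vcam1 level of all clusters. Vcam1 was at 474 CPM (450.0 to 498) in 766 control cells and at 279 CPM (246 to 316) in 193 c-Maf KO cells, a log2 ratio of -0.76 (-0.96 to -0.57). K cells gave 1508 Vcam1 UMIs in the control, against 440 from all endothelial cells, and 257 in the c-Maf KO library, against 1320. Most Vcam1 UMIs of the annotated control cells were thus counted in K cells, and most of those in the c-Maf KO library in endothelial clusters. Of 7 adhesion genes tested in K, 3 were called higher (Selp, Selplg and Icam2) and 3 lower (Vcam1, Icam1 and Itgb7), beside 6.12% and 10.8% of all genes. The Itgb7 ratio, from 89 and 17 UMIs, has an interval from 0.369 to 1.12. Other markers differed in K as well: the 10 monocyte and dendritic markers summed to 3268 and 8474 CPM and the 10 platelet markers to 336 and 574 CPM. Endothelial markers were also counted in K. Cells with 3 or more of their UMIs numbered 264 and 46 and held 1022 and 155 of the Vcam1 UMIs. Cells with 0 of their UMIs had 326 and 162 CPM of Vcam1. The part of endothelial RNA in the K levels was not tested. Icam1 lost its call without the cells with 3 or more, a choice not planned beforehand.

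Most Selp UMIs of K, and most Icam2 UMIs of its c-Maf KO cells, lay in few cells that shared a set of other genes. A list of 10 genes known from macrophages of the peritoneal cavity, among them Gata6, Prg4 and Alox15, was written after the Icam2 and Selp levels in K had been seen. Cells with 5 or more UMIs of the list numbered 4 of 766 in the control and 14 of 193 in the c-Maf KO library. They were deep, at medians of 17735 and 12615.5 UMIs, against 2247.5 and 1812 UMIs in the other K cells. The cut is not scaled to depth, so shallow cells of the same kind could fall under it. Cells over this cut were not particular to K: Leukocytes_1 held 7 of 166 and 22 of 219, PV 7 of 56 and 8 of 135, and Neutrophils 4 of 212 and 7 of 324. Which genes of the list they held outside K was not examined, so they may be of another kind there. The cells over the cut in K held 32 of the 42 control and 31 of the 31 c-Maf KO Selp UMIs of K. They also held 48 of 231 and 174 of 246 Icam2 UMIs, and 0 Vcam1 UMIs in both. Of the Kupffer cell genes examined there, Clec4f had 1 and 0 UMIs and Vsig4 0 and 23. Without these cells Selp was at 3.21 CPM in the control and at 0 in the c-Maf KO library (0 of 179 cells, which allows up to 1.68%), and Icam2 was at 58.8 and 97.6 CPM, still called higher with a ratio of 1.66 (1.25 to 2.19). Vcam1 was then at 485 and 348 CPM, a ratio of 0.719 (0.627 to 0.821) that is not called, and Icam1, Selplg and Itgb7 were not called either. When each K cell was weighted equally, the log2 ratio of Vcam1 was -0.27 and that of Icam1 0.14.

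**Figure D4:**
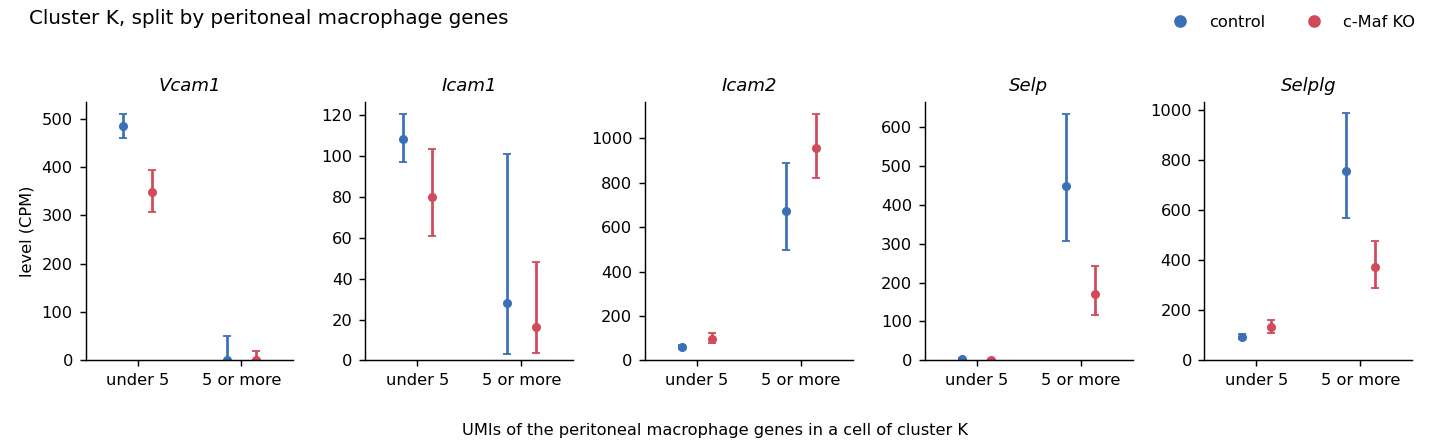
Level (CPM, linear axes that differ between panels, 95% Poisson intervals) of 5 genes in cluster K cells with fewer than 5 and with 5 or more UMIs of 10 peritoneal macrophage genes, in the control (blue, 762 and 4 cells) and the c-Maf KO library (red, 179 and 14 cells). Vcam1 is at 0 and Icam2, Selp and Selplg are high in the cells on the right of each panel.

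The other genes of leukocyte adhesion were taken from 6 lists with 84 members, of which 82 were in the tables and 64 reached 50 UMIs in endothelial cells. The call was higher for 10 of these, lower for 19 and absent for 35, and their median log2 ratio was -0.32. The same figures for every gene tested were 14.5% higher, 16.0% lower and a median of -0.08. Among selectin ligands, Cd34, a sialomucin that can present ligands to L-selectin, went from 28.9 to 329.6 CPM and Cd24a from 7.70 to 22.1 CPM, while Cd44, a hyaluronan receptor, went from 3.45 to 2.25 CPM. Of 9 enzymes that build selectin ligands, 4 were lower, among them Chst1, Chst2 and B3gnt3 (log2 ratios -1.05, -0.92 and -0.79), and Tpst1, a tyrosylprotein sulfotransferase, was higher (1.52, 6.16 and 17.7 CPM). Its counterpart Tpst2 was the other enzyme called lower (-0.67, 206 and 129 CPM). Of 11 integrin subunits, Itga6 and Itgb3 were higher (1.76 and 1.55), and Itga9, Itga1, Itgav and Itgal were lower, with Itga9 and Itga1 at -1.82 and -1.71 and Itgav at -1.04. Of 12 other immunoglobulin-like receptors, Bcam, Pvr and Alcam were higher (1.63, 0.81 and 0.66) and Jam2 and Cd47 lower (-1.67 and -1.49).

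Among 8 transmigration and vascular adhesion proteins, Vwf, the platelet-binding von Willebrand factor, went from 41.6 to 96.8 CPM and Plvap, which forms the diaphragms of fenestrae, from 171 to 263 CPM. Stab2, Stab1 and Lyve1, which mark sinusoids and also bind hyaluronan or leukocytes, were lower (-2.64, -1.64 and -1.40). Of 16 cytokine receptors and NF-kB factors, 0 were higher and 4 were lower, the latter not far from the 16.0% of all genes. These were Il1r1 (log2 ratio -1.99), Il4ra (-1.32), Tlr4 (-0.64) and Tnfrsf1a (-0.60), which receive interleukin-1, interleukin-4, endotoxin and tumor necrosis factor. Nkx2-3, a homeobox factor known from Madcam1 expression in gut vessels, had 9 and 29 UMIs, too few for a call.

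Some pairs of adhesion genes were looked at within single endothelial cells. Among control cells, those with a Selp UMI held a Sele UMI in 3.89% of cases (1.96 to 6.85), against 0.938% of cells without Selp, and in the c-Maf KO library in 8.72% (4.96 to 14.0), against 1.70%. Cells with a Vcam1 UMI held an Icam1 UMI in 47.1% and 48.2% of cases, against 23.6% and 26.9% of cells without Vcam1. In each of these comparisons the cells with the first gene were deeper, for Vcam1 at medians of 7981 against 4556 UMIs in the control and 11180.5 against 5712 UMIs in the c-Maf KO library. The part of depth in these shares was not tested.

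Genes with a like pattern were sought among 11977 genes over 39 combinations of cluster and library with at least 50 cells each, by Pearson's r of log2(CPM + 1). These r describe clusters that share 2 libraries and are no test. Itga4 was most like Dock2, Arhgap30 and Lsp1 (r = 0.98, 0.97 and 0.97), and Selplg most like Laptm5, Pik3cd and Arhgap9 (0.96, 0.94 and 0.94). Itgb7 was most like B4galnt1, Ptpn22 and Tagap (0.89, 0.88 and 0.88). Vcam1 was most like Ctsf, Sema6d and Tspan15 (0.91, 0.89 and 0.89), Icam2 most like 4931406P16Rik, Knop1 and Npr2 (0.94, 0.94 and 0.93), and Icam1 and Selp most like Uba7 and Insr (0.83 and 0.82). Over the 11 endothelial combinations alone, the nearest genes were Il15 for Selp (0.93), Prmt7 for Vcam1 (0.93), Lepr for Icam1 (0.92) and Gabpb1 for Icam2 (0.94). Madcam1 and Sele had under 200 UMIs in all and were left out.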

How the data were processed

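The authors deposited whole UMI counts per gene and barcode and a table of cluster names. The submitters' processing notes list mm10, Seurat 3.2.3, Cell Ranger 4.0.0 and FastQC 0.11.3; parameters and cluster abbreviations are not explained there. Columns left unused number 0. UMIs were summed per cluster, or group of clusters, and library, and scaled to CPM. Cells were those named by the authors. Clusters D and H (122 control, 90 c-Maf KO cells, mixed markers) entered no group. S, S2 and KOS_1 to KOS_3 were taken as sinusoidal from their names, although the 21 control cells of KOS_2 carry platelet markers (14105 CPM).

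Intervals are exact Poisson for levels, Clopper-Pearson for shares and conditional binomial for ratios, at 95%. Log2 ratios add 0.5 UMI to each sum, and a count of 0 is taken to allow 3. Scrublet (scanpy 1.11.5) marked 123 control cells (1.60%) and 169 c-Maf KO cells (2.07%) as doublets, which were left out in 1 alternative only. The calling was run on simulated counts with Poisson spread alone and planted ratios well past the size for a call. These counts held no spread between mice, so they cannot show how far calls between single libraries hold. Cd58 and Cd99 had no match in the tables. Motifs were searched in the 250 bases before RefSeq starts (GRCm38.p6), which 6 of 9 genes had; Selplg, Vcam1 and Icam2 had none. Named genes are the 9 members, up to 3 highest and 3 lowest called genes per list, the 3 most alike genes and Maf. Itgal, Tpst2, Nkx2-3, Clec4f, Vsig4 and the peritoneal genes were named after their values were seen. The members and lists were chosen with earlier results of these data known.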

Additional observations from a re-analysis of the deposited data

Results flagged for a closer look

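The size of the Selp and Vcam1 differences was not the same in every endothelial cluster, and the difference between clusters was not tested. The log2 ratio (c-Maf KO over control) of Selp was 0.93 in PV, -2.19 in S and S2 pooled and -1.89 over the sinusoidal clusters. That of Vcam1 was 0.78 in C-EC and 1.20 over the sinusoidal clusters, but -0.74 in PV and -0.60 in S and S2 pooled. All of these pass the size for a call, so each gene was called in opposite directions. The Vcam1 call in PV rests on 20 and 31 UMIs with overlapping intervals (28.1 to 71.1 and 18.9 to 39.4 CPM). Without the cell richest in Vcam1 in each library it could not be made. Within the pooled clusters Vcam1 was at 18.7 CPM in control and 20.1 CPM in c-Maf KO cells of S, and at 28.6 and 14.4 CPM in S2.

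Itga4 in the cluster Neutrophils went in opposite directions in the 2 types of cell, with a log2 ratio of 1.31 in female-type cells (83.1 and 207 CPM) and -2.09 in male-type cells (208 and 48.8 CPM). This difference was not tested either, and over all Neutrophils the ratio was 0.22. It was the only case of opposite calls in a search of 9 endothelial and 65 hematopoietic cluster values.

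Barcodes to which the authors gave no cluster name, outside every comparison above, also held Madcam1. In the c-Maf KO library 892 such barcodes had 31 Madcam1 UMIs in 20 barcodes, at 3.64 CPM (2.48 to 5.17), and in the control 1369 had 2 UMIs, at 0.223 CPM. Selp was at 27.0 CPM in the control and 7.88 CPM in the c-Maf KO barcodes of this kind. Vcam1 went against its direction in endothelial cells, at 66.0 CPM (60.8 to 71.5) in the control and 42.9 CPM (38.6 to 47.5) in c-Maf KO. Selplg (78.7 and 57.0 CPM), Icam1 (61.3 and 48.2 CPM) and Itgb7 (35.3 and 18.1 CPM) were lower in c-Maf KO as well. The intervals of Sele, Icam2 and Itga4 overlapped.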

How the results depend on the processing

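No paired analysis was possible because each group is 1 library. At the 1.5-fold call, Selp and Vcam1 kept their call in endothelial cells in 12 of 12 alternatives of scaling, thinning, weighting or cells, and Icam1 and Icam2 stayed uncalled in 12 of 12. Itga4 kept its call in the 8 of these in which it had 50 UMIs, and Madcam1 in 9. With 3 control UMIs, Madcam1 can reach 50 UMIs only through the c-Maf KO sum. Its call was therefore fixed wherever it was tested, and the 9 kept calls do not show that it is stable. The count of members called higher, 2, and lower, 2, became 1 and 1 when cells were thinned to equal depth, without cells that hold leukocyte, platelet or Kupffer markers, and in male-type cells only. In each of these fewer genes (4) reached 50 UMIs. With cells weighted equally 3 were higher, Sele among them, and in female-type cells 3 were lower, with Sele and Selplg among them. With a call at 2-fold, 1 member was lower, and Itga4 lost its call. Of the pathway genes, 19 lower became 11 at 2-fold and 12 without marker-holding cells, and over all alternatives 7 to 15 were higher and 11 to 24 lower. The Itga4 ratio in endothelial cells reversed to 0.37 when thinned (10 and 14 UMIs) and to 2.33 without marker-holding cells (0 and 5 UMIs). Selp in B1 reversed to 1.19 in male-type cells (0 and 12 UMIs), Icam1 in K to 0.14 with cells weighted equally, and Itgb7 in K to 0.16 in male-type cells; the cause was not tested. Without the cells holding peritoneal macrophage genes, a choice made after seeing the data like that of leaving out the top PV cell, Selp in K reversed to -2.32 (10 and 0 UMIs). Of 108 alternative values in endothelial cells, 80 lay inside the counting interval of the main value, 26 lay outside, and 2 reversed a called direction. For 404 in hematopoietic clusters these counts were 344, 56 and 4. A change of sign counted as a reversal only where the main value was called. Among the uncalled genes in endothelial cells, Icam1 and Itgb7 kept their sign in 7 of 12 alternatives, Selplg in 10, and Sele and Icam2 in 11.

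With 1 library per group, animal, library and genotype cannot be told apart, and the intervals leave out the spread between mice. Each pool mixes female and male cells in proportions that differ. Depth limits Sele, Madcam1 and the leukocyte genes in endothelial cells most, since each rests on under 200 UMIs. Free RNA from other cells was not subtracted.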
